A study of Rattus norvegicus with 74 samples.

Results

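The genes described here are 9 members of the cardiac load program, chosen by symbol from the 30560 genes of the 3 deposited count tables: Nppa (ENSRNOG00000008176), Nppb (ENSRNOG00000008141), Myh6 (ENSRNOG00000025757), Actc1 (ENSRNOG00000008536), Acta1 (ENSRNOG00000017786), Ankrd1 (ENSRNOG00000018598), Xirp1 (ENSRNOG00000037085), Xirp2 (ENSRNOG00000034258) and Csrp3 (ENSRNOG00000014327). All 9 symbols matched 1 gene each in the left ventricle (LV), skeletal muscle (SM) and isolated mitochondria (MT) tables. The question was how endurance training changed them in the heart, with hindlimb muscle of the same rats beside it. The animals were male wild-type Wistar Kyoto rats, 9 weeks old when tissue was taken, and per the labels all of them drank water that held deuterium oxide. Exercise-trained rats (ExT) began treadmill running when 5 weeks old and ran on 5 days of each week over 4 weeks, working up to 60 min at 20 m/min. Sedentary rats (Sed) stood for as long on a treadmill that was switched off, and the tissue was collected 24 h after the last session. LV_Sed and LV_ExT were libraries of the left ventricle wall from 7 rats each. SM_Sed and SM_ExT were libraries of the red inner gastrocnemius from 15 rats each, and MT_Sed and MT_ExT were libraries of mitochondria captured by immunoprecipitation from the same muscles. The 74 libraries came from 30 rats, and each LV rat also gave an SM library.

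Nppa and Nppb encode atrial and B-type natriuretic peptide, hormones that heart muscle releases when its wall is stretched and that act through receptor guanylate cyclases on vessel, kidney and heart cells. A pressure-loaded ventricle raises both, together with genes of the fetal heart such as skeletal alpha-actin (Acta1), while it lowers alpha-myosin heavy chain (Myh6), the fast myosin of the adult rodent ventricle. Training is commonly described as growth of the heart without this fetal pattern. Actc1 encodes cardiac alpha-actin, the main sarcomeric actin of the adult heart. Ankrd1 (CARP) is a titin-linked, stress-responsive protein of cardiomyocytes, Csrp3 (muscle LIM protein) is a Z-disc adaptor, and Xirp1 and Xirp2 encode the Xin repeat proteins of intercalated discs and muscle attachment sites.

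Library totals were 54645657 to 75758777 counts in LV, 19477976 to 39401323 in SM and 530397 to 9988027 in MT, so the MT values carry the largest counting error. Levels are given as CPM (a gene's counts per 1000000 counts of its library, scaled by TMM within one table), and they are compared between groups for 1 gene at a time, because gene lengths were not used here. The LV libraries matched their labelled tissue: the cardiac factors Nkx2-5 and Irx4 were at 13.4 to 20.7 and 11.9 to 17.8 CPM in all 14, and the skeletal factor Myod1 had no count in any. Both LV libraries named next stood apart from the other 12. Rat 19 (LV_Sed) had 64.5 CPM of Myl4 and 197.7 CPM of Myl7, the atrial myosin light chains, and rat 26 (LV_ExT) had 236.7 and 659.9 CPM, against 0.547 to 1.74 CPM of Myl4 and 0.346 to 45.6 CPM of Myl7 in the other LV libraries. Since atrial muscle also expresses Nppa, the LV training results of the members and lists are given with and without these 2 rats. As in any bulk tissue, fewer cells of a type and less RNA per cell cannot be told apart.

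The peptide genes and the actin pair carry the main contrasts below, so the 250 bases before their transcription starts are shown. RefSeq promoters (build GRCr8) were found for 7 of the 9 members, with 9 starts in all. Ankrd1 and Csrp3 were not matched. The Nppa window is chr5:163711934-163712183 on the plus strand and the Nppb window is chr5:163699758-163700007 on the plus strand. RefSeq places 0 protein-coding genes between the 2 genes. The Acta1 window is chr19:68784195-68784444 on the minus strand, and the Actc1 window is chr3:121271828-121272077 on the minus strand. Each is printed 5′ to 3′ on the gene's own strand. Capitals mark matches to TGATAA and AGATAA (forms of the motif that GATA factors bind), to CATTCC (bound by TEAD factors) and to the CArG box (bound by serum response factor), searched on both strands.
Nppa promoter: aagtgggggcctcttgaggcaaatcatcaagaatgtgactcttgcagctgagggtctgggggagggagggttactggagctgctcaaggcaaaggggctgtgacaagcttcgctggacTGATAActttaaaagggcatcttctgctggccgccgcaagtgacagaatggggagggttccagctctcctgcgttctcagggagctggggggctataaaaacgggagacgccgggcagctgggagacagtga
Nppb promoter: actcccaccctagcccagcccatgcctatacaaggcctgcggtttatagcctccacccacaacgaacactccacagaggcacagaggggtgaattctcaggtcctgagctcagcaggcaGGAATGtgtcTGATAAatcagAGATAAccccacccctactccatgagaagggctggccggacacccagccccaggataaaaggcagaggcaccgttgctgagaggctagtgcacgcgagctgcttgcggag
Acta1 promoter: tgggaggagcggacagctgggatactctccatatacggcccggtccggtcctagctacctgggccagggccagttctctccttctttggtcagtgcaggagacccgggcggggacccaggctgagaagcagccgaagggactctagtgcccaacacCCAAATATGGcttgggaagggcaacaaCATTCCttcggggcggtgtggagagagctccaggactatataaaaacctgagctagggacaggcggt
Actc1 promoter: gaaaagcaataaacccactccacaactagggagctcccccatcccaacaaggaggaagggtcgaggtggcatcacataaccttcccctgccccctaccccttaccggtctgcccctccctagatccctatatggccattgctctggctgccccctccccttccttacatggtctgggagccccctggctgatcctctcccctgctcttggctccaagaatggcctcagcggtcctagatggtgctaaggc
The Nppa window held TGATAA with its first base at -132 from the start. The Nppb window held TGATAA at -121, AGATAA at -110 and CATTCC, read as its reverse complement GGAATG, at -131, and the 3 matches do not overlap. Acta1 held a CArG box at -94 and CATTCC at -67, and in Actc1 these letters were not present in the window. Over all 33469 RefSeq rat promoters of this length, 7.97% held TGATAA, 10.3% AGATAA, 12.1% CATTCC and 1.5% a CArG box. A match is a description of letters only, not of binding.

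No member of the set was called changed by training in the left ventricle, while all 9 estimates lay above 0. In LV_Sed, Nppa was lowest at 18.7 CPM, had a median of 90.1 CPM and was highest at 322 CPM. In LV_ExT it was lowest at 33.4 CPM, had a median of 65.9 CPM and was highest at 994 CPM. The trained median was the lower one although the trained mean was the higher (246 ± 363 against 108.5 ± 105 CPM, SD, n = 7 each), because rats 26 and 18 stood far above the other 5 trained rats. The groups overlapped over most of their range. The fitted log2 fold change was 1.18 (SE 0.924, 95% interval -0.83 to 3.19, adjusted p = 0.862, edgeR's quasi-likelihood test with Benjamini-Hochberg adjustment over 14488 genes). Without rats 19 and 26 it was 0.73 (SE 0.775, adjusted p = 0.868). Leaving out rat 26 alone brought it to 0.16, and leaving out rat 19 alone to 1.75.

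Nppb varied less between rats. It ran from 30.8 through a median of 53.0 to 132 CPM in LV_Sed and from 31.2 through a median of 79.7 to 185 CPM in LV_ExT. The arms overlapped almost completely, and rat 18 held the highest trained value. The log2 fold change was 0.34 (SE 0.445, 95% interval -0.63 to 1.31, adjusted p = 0.926), and without rats 19 and 26 it was 0.44 (SE 0.493, adjusted p = 0.878). Without trained rat 18 it was 0.065, and without sedentary rat 31 it was 0.56. The log2 ratio of Nppb to Nppa counts within a library, which no scaling can move, differed between arms by -0.22 (exact two-sided permutation test, p = 0.758), with 0.017 when rats 19 and 26 were left out.

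Among the sarcomere genes, Myh6, which a pressure-loaded ventricle lowers, had a small estimate above 0. In LV_Sed it was lowest at 14466 CPM, had a median of 15945 CPM and was highest at 19413 CPM, and in LV_ExT these values were 15445, 18624 and 22250 CPM. The arms overlapped: sedentary rats 16 and 32 were above the trained median, and trained rats 18 and 26 were below sedentary rat 19. The log2 fold change was 0.15 (SE 0.0846, 95% interval -0.04 to 0.33, adjusted p = 0.817) and 0.18 without rats 19 and 26. Myh7, the slow beta-myosin gene that adjoins Myh6, gave 0.20 on the log2 scale (SE 0.188, adjusted p = 0.886), and 0.16 without rats 19 and 26. The log2 ratio of Myh6 to Myh7 counts was 2.65 ± 0.527 in LV_Sed and 2.59 ± 0.444 in LV_ExT (SD, n = 7 each). It differed by -0.05 (exact two-sided permutation test, p = 0.84), and by 0.007 without rats 19 and 26. These 2 myosins share long near-identical stretches, and so do the actin genes, so the deposited counts of each pair may be divided imperfectly between its members.

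Acta1, the skeletal actin that a loaded heart re-expresses, ranged from 401 to 760 CPM in LV_Sed with a median of 636 CPM. In LV_ExT it ranged from 422 to 969 CPM with a median of 760 CPM. Trained rats 25, 26 and 18 were above every sedentary rat and trained rat 27 was among the lowest of all 14. Its estimate was 0.30 on the log2 scale (SE 0.179, 95% interval -0.09 to 0.69, adjusted p = 0.819), and 0.26 without rats 19 and 26. Actc1 ran from 4013 through a median of 4310 to 4800 CPM in LV_Sed and from 3974 through 4959 to 5217 CPM in LV_ExT. Trained rat 14 had the lowest Actc1 value of all 14 libraries, while 5 of the other trained rats lay above every sedentary rat. Its log2 fold change was 0.13 (SE 0.0649, raw p = 0.0553, adjusted p = 0.804), and 0.14 without rats 19 and 26. The log2 ratio of Acta1 to Actc1 was -2.87 ± 0.282 in LV_Sed and -2.72 ± 0.403 in LV_ExT, a difference of 0.16 (exact two-sided permutation test, p = 0.427), and 0.11 without rats 19 and 26.

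Of the Z-disc and attachment genes, Xirp2 and Xirp1 gave the smallest p-values of the set, and no member passed the adjustment. Xirp2 ran from 492 through a median of 593 to 718 CPM in LV_Sed and from 601 through a median of 685 to 838 CPM in LV_ExT. Rat 31 was the one sedentary rat above the trained median, and all trained rats were above the sedentary median. Xirp2 had a log2 fold change of 0.23 (SE 0.0816, 95% interval 0.05 to 0.41), a 1.17-fold difference with raw p = 0.0121 and adjusted p = 0.804. Without rats 19 and 26 it was 0.19 (raw p = 0.0333, adjusted p = 0.808). Xirp1 ran from 209 through 223 to 264 CPM in LV_Sed and from 226 through 262 to 290 CPM in LV_ExT. Trained rats 14, 17 and 25 exceeded every sedentary rat, and rats 18 and 27 were the trained rats that stayed low. Its log2 fold change was 0.14 (SE 0.0672, raw p = 0.0491, adjusted p = 0.804), with a 95% interval computed from the SE of -0.0046 to 0.29, and 0.17 without rats 19 and 26 (raw p = 0.0308, adjusted p = 0.808).

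Csrp3 ran from 126 through 135 to 159 CPM in LV_Sed and from 127 through 158 to 203 CPM in LV_ExT, where rat 26 was highest. The log2 fold change was 0.15 (SE 0.0844, adjusted p = 0.806) and fell to 0.095 (SE 0.0715) without rats 19 and 26, and leaving out trained rat 26 alone gave 0.080. Ankrd1, among the most load-sensitive transcripts of heart muscle, differed least. It ran from 974 through 1186 to 1282 CPM in LV_Sed and from 832 through 1138 to 1785 CPM in LV_ExT. The trained rats held both the lowest value (rat 14) and the 2 highest (rats 18 and 26). Its log2 fold change was 0.05 (SE 0.129, 95% interval -0.24 to 0.33, adjusted p = 0.968), 0.0024 without rats 19 and 26, and -0.07 without trained rat 18.

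**Figure D1:**
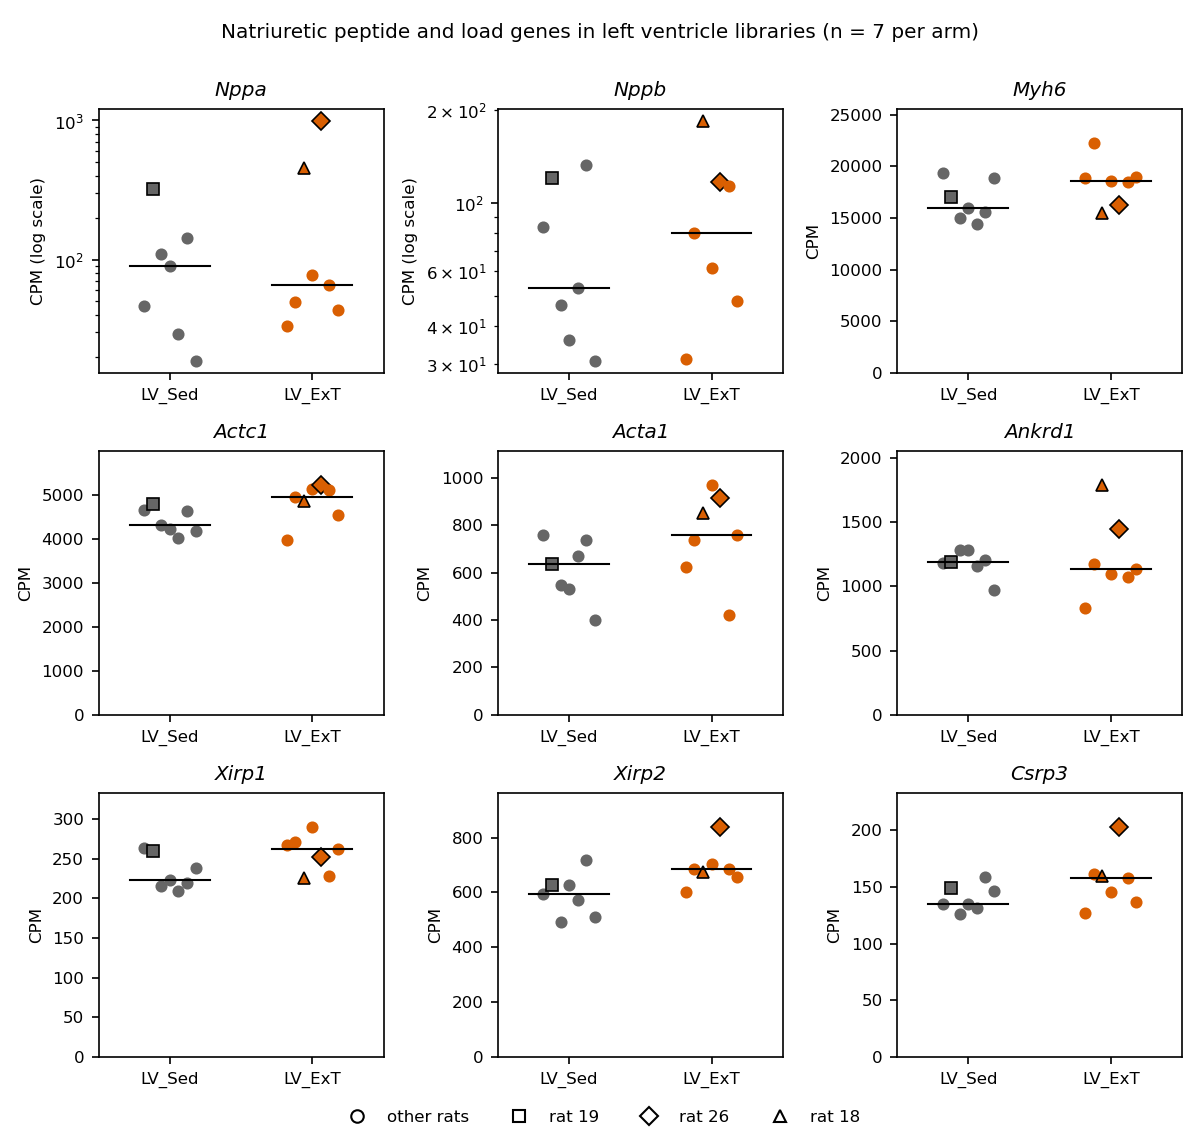
Each panel plots 1 gene's CPM (y axis, log scale for Nppa and Nppb, otherwise from 0) in the 7 LV_Sed and 7 LV_ExT libraries. Points are rats, bars are medians, and rats 18, 19 and 26 have their own symbols. Nppa spans 18.7 to 994 CPM while Myh6, Actc1 and Csrp3 keep narrow, overlapping groups.

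Counted over the set, 0 of 9 members were called at adjusted p under 0.05 in LV_ExT against LV_Sed, where edgeR called 0% of the 14488 genes tested and DESeq2 called 1 gene, no member. At an unadjusted p under 0.05 there were 2 of 9 members with edgeR (Xirp1 and Xirp2) and 3 with DESeq2, beside 5.9% of all genes with edgeR. The median log2 fold change was 0.15 for the members and 7.1e-05 for all genes. All 9 members had estimates above 0, as did 50% of genes tested. The 2 arms overlapped for every member (0 of 9 separate, beside 0.0483% of all genes). Without rats 19 and 26 all 9 estimates were still above 0, 2 of 9 members (Xirp1 and Xirp2) had an unadjusted p under 0.05 beside 5.5% of all genes, and the adjusted p-values ranged from 0.808 to 0.999. Among the 6 trained and 6 sedentary LV rats numbered 17 to 32, 5 members (Actc1, Xirp2, Xirp1, Csrp3 and Myh6) had an unadjusted p under 0.05, beside 11.8% of all genes in that fit, with the lowest adjusted p at 0.330 for Actc1. The genes are not independent of one another, because the same 14 hearts and the same scaling underlie all of them. The summed level of 8 ventricular cardiomyocyte markers was 15890.5 to 19580 CPM in LV_ExT and 14586 to 19391 CPM in LV_Sed (exact permutation test, p = 0.274, and p = 0.147 without rats 19 and 26). All 8 of these markers also had estimates above 0, and their part in the members' shared direction was not tested.

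**Figure D2:**
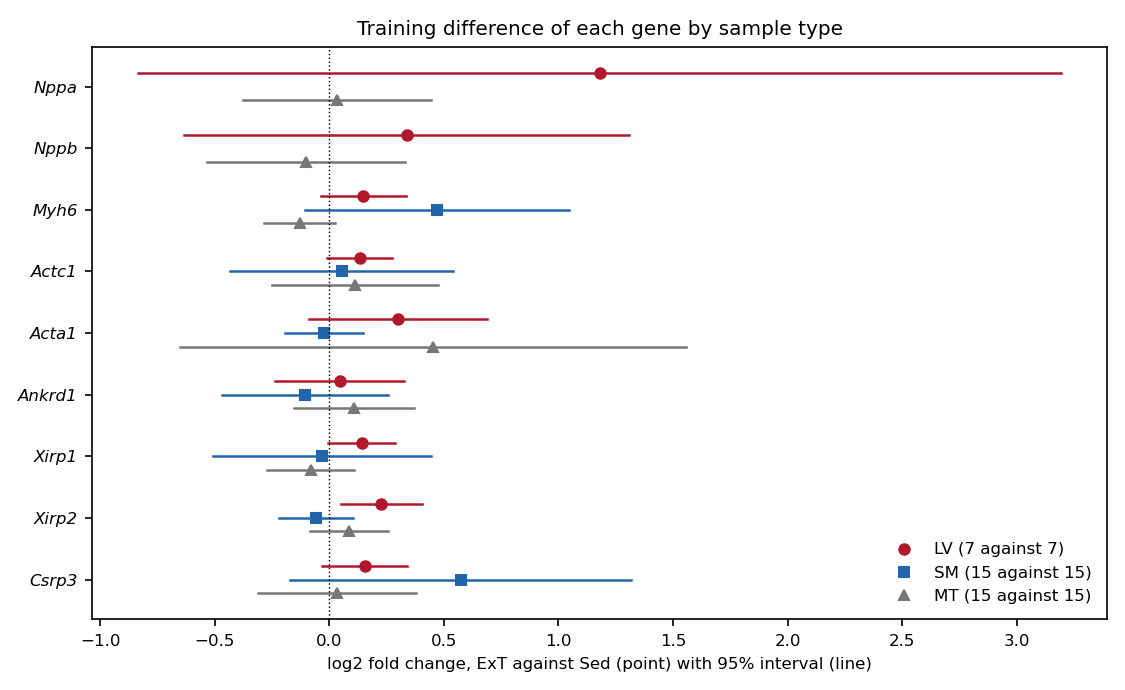
The log2 fold change of ExT against Sed (x axis) is plotted for each gene (y axis) as a point with its 95% interval, in LV (7 rats per arm), SM (15 per arm) and MT (15 per arm). Of the 9 LV intervals only that of Xirp2 (0.05 to 0.41) leaves out 0, before any adjustment. The intervals were computed from the SE with the residual degrees of freedom of each fit, fewer than the test used. Xirp1 in LV has an interval that takes in 0 (-0.0046 to 0.29) beside a raw p of 0.0491 (edgeR's quasi-likelihood test). Nppa and Nppb have no SM point because they did not pass the filter on low counts there.

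Within the ventricle, Nppa went with Nppb over the 14 libraries. After the mean of each arm was removed, log2 levels of both genes correlated with r = 0.707 and rho = 0.714 (permutation p = 0.00794 and 0.00764). Adjusted over the 8 pairs examined, these became 0.0415 and 0.0611. Leaving out rats 18 and 26, whose Nppa was farthest from the median, gave r = 0.632, and leaving out rats 19 and 26 gave r = 0.697 (adjusted permutation p = 0.0983). Among the 12 rats numbered 17 to 32, r was 0.708 (adjusted permutation p = 0.0649). Rat 18 had 456 CPM of Nppa, second of 14, and the highest Nppb and Ankrd1. Its Myl4 was 0.996 CPM and its Myl7 5.81 CPM. The part of atrial RNA in the Nppa values was not tested. Over all 14 libraries Nppa and the summed level of 8 atrial markers gave r = 0.681 and rho = 0.327 (adjusted permutation p = 0.0415 and 0.279). That sum sets rats 19 and 26 apart from the rest, so this r is no measure of a relation over the libraries. In the other 12 libraries most of that sum was Dkk3, which rat 26 held at a level like theirs, so the sum gives little reading of atrial RNA within them.

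Nppb and Ankrd1 correlated over the 14 libraries with r = 0.656 and rho = 0.565 (permutation p = 0.0116 and 0.0412, adjusted 0.0415 and 0.165). This relation rested on few rats, since r was 0.422 without rats 18 and 32, which lie farthest from the Nppb median, and 0.526 (adjusted permutation p = 0.187) among rats numbered 17 to 32. The other 5 pairs did not pass. Myh6 with Myh7 gave r = -0.50, Ankrd1 with Csrp3 gave 0.49, Ankrd1 with Xirp1 gave -0.41, Acta1 with Actc1 gave 0.32 (0.709 without rats 27 and 32, and 0.58 with scaling by library totals alone, adjusted permutation p = 0.0665) and Xirp1 with Xirp2 gave 0.01 (adjusted permutation p from 0.163 to 0.962).

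**Figure D3:**
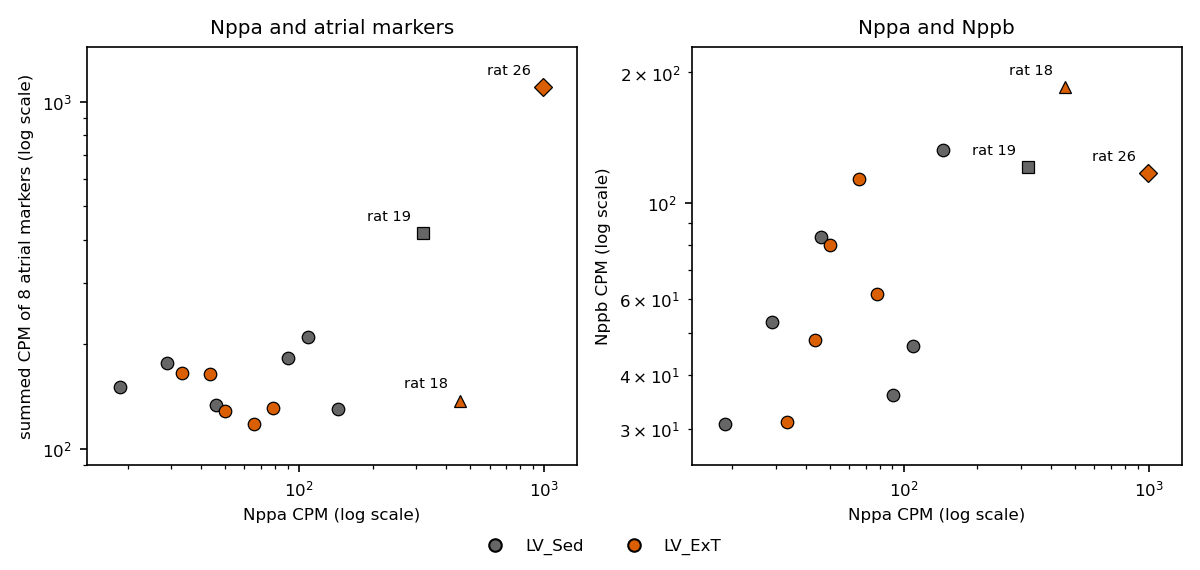
Nppa in CPM (x axis, log scale) is plotted against the summed CPM of 8 atrial markers (left) and against Nppb CPM (right, both log scale) for the 14 LV libraries, coloured by arm. Rats 19 and 26 stand off at high atrial marker levels (418 and 1100 CPM). Rat 18 has 456 CPM of Nppa at a marker level like that of the other rats, where the sum is mostly Dkk3.

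The genes around the members were examined through lists that hold the members too. Over all genes tested in LV, 5.9% had an unadjusted p under 0.05 and 50% had estimates above 0. Of the natriuretic peptide system (ligands, the proteases corin and furin that process them, receptors and cGMP enzymes), 15 of 18 genes in the tables passed the filter in LV, none was called or reached an unadjusted p under 0.05, and 10 had estimates above 0 (median 0.04). Among the 25 transcription factors and co-factors tested, including Gata4, Mef2 and NFAT genes, 0 were called with edgeR, 3 had an unadjusted p under 0.05 and 18 lay above 0 (median 0.06). Of 23 contractile and calcium genes 0 were called, 1 had an unadjusted p under 0.05 and 20 lay above 0 (median 0.13). Of 28 Z-disc genes tested 0 were called, 5 had an unadjusted p under 0.05 and 25 lay above 0 (median 0.06). Beside Xirp1 and Xirp2 the latter were Actn2, the alpha-actinin of cardiac Z-discs (0.25, SE 0.0803), the titin cap gene Tcap (0.36, SE 0.127) and Trim54 (0.12, SE 0.0557), named after their values were seen and each with adjusted p = 0.804. Growth and wall-stress ligands and receptors were split, with 11 of 25 above 0 (median -0.03), and genes described in exercise-induced heart growth had 9 of 13 above 0 (median 0.09), with 0 called in either list. Each of these lists had 1 gene with an unadjusted p under 0.05. Without rats 19 and 26 none of the 6 lists held a called gene, and the numbers above 0 were 9 of 15, 19 of 25, 16 of 23, 23 of 28, 10 of 25 and 9 of 13 in the same order. The numbers with an unadjusted p under 0.05 were then 0, 1, 2, 5, 2 and 0, beside 5.5% of all genes.

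In gastrocnemius no member was called either. The estimates of some members changed sign with the rats compared, as given below. For that difference edgeR called no member and DESeq2 called Xirp1, in a comparison chosen after the data were seen. Of the 7 members that passed the filter in SM, 0 were called and 0 reached an unadjusted p under 0.05 with edgeR or DESeq2, beside 0.206% of 13570 genes called with edgeR and 13.7% at an unadjusted p under 0.05. Their median log2 fold change was -0.02, and 3 of 7 lay above 0. Csrp3 ran from 18.4 through a median of 96.7 to 161 CPM in SM_Sed and from 15.2 through 127 to 360 CPM in SM_ExT. The ranges overlapped fully at the low end, and the log2 fold change was 0.57 (SE 0.363, adjusted p = 0.495). Myh6, a trace transcript in this muscle, ran from 1.45 through 6.29 to 11.4 CPM in SM_Sed and from 1.68 through 8.64 to 14.1 CPM in SM_ExT (0.47, SE 0.282, adjusted p = 0.469). The estimates for Actc1 (0.05), Acta1 (-0.02), Xirp1 (-0.03), Xirp2 (-0.06) and Ankrd1 (-0.10) were near 0, with adjusted p from 0.781 to 0.969.

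Nppa and Nppb were near the limit of detection in muscle. Nppa had 5 counts in total over the 15 SM_Sed libraries and 4 over the 15 SM_ExT libraries, with 12 of 15 libraries at 0 in each arm. Nppb had 2 counts over SM_Sed and 0 over SM_ExT. A count of 0 in 1 library allows up to 3 counts, so training differences of the peptides were not detectable in SM at this depth.

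The titles number the rats, and for Xirp1, Csrp3 and Actc1 the muscle estimates had opposite signs in rats 2 to 16 and rats 17 to 32. Xirp1 had a median of 219 CPM in the 7 sedentary and 353 CPM in the 7 trained rats numbered 2 to 16, which gave 0.81 on the log2 scale (SE 0.299, raw p = 0.018, adjusted p = 0.129). In rats 17 to 32 it was 406 CPM in the 8 sedentary and 275 CPM in the 8 trained rats, a log2 fold change of -0.77 (raw p = 0.00339, adjusted p = 0.687). Csrp3 gave 1.40 and -0.41 in these ranges, Actc1 gave 0.62 and -0.49, and Myh6 gave 0.86 and 0.11, whereas Acta1 gave -0.02 in both. The difference between the ranges was tested as an interaction in 1 fit of the whole SM table. edgeR called 0% of 13570 genes (13.3% at an unadjusted p under 0.05) and no member, with Xirp1 at -1.57 (SE 0.379, raw p = 0.000296, adjusted p = 0.183), Csrp3 at -1.81 (SE 0.647, adjusted p = 0.259) and Actc1 at -1.10 (SE 0.443, adjusted p = 0.288). DESeq2 called 56 genes, among them Xirp1 (adjusted p = 0.0467). The labels give no meaning to the number ranges. This comparison was chosen after the data were seen.

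Myh6, Actc1, Csrp3 and Xirp1 followed the slow-fibre markers of each muscle piece, taken as the summed CPM of 8 slow-fibre markers (Myh7, Tnnt1, Tnni1, Tnnc1, Myl2, Myl3, Myoz2 and Atp2a2). Myh7 was the largest part of this sum, with a median of 10101 CPM over the SM libraries, and Atp2a2 came next at 2091 CPM. Correlations with the sum without Myh7 were not examined. Over the 30 SM libraries, with the mean of each arm removed, Myh6 correlated with this sum at r = 0.867 and rho = 0.833, Actc1 at 0.850 and 0.887, and Csrp3 at 0.793 and 0.757. Each permutation p was 1e-05, the smallest that 100000 resamples can give, and 2.33e-05 after adjustment over 7 members. Xirp1 was weaker, at r = 0.577 and rho = 0.647 (permutation p = 0.00151 and 0.00034, adjusted 0.00264 and 0.000595). Without the 2 rats farthest from each gene's median, r was 0.802 for Myh6, 0.823 for Actc1, 0.697 for Csrp3 and 0.593 for Xirp1. Ankrd1 (r = -0.201, rho = -0.175), Xirp2 (-0.316, -0.293) and Acta1 (0.140, 0.0576) did not follow it (adjusted permutation p from 0.139 to 0.767).

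The relation was also seen within each range of rats for Actc1 (r = 0.775 in 14 rats numbered 2 to 16 and 0.869 in 16 rats numbered 17 to 32, adjusted permutation p = 0.00434 and 7e-05) and Csrp3 (0.704 and 0.823, adjusted permutation p = 0.043 and 0.00117). For Myh6 r was 0.734 (adjusted permutation p = 0.0567) and 0.926 (7e-05), and for Xirp1 it was 0.458 and 0.526, neither past the threshold (adjusted permutation p = 0.103 and 0.0838). The slow-fibre sum was not tested between arms, and 0 of its 8 markers reached an unadjusted p under 0.05 with edgeR. All 8 markers had SM estimates above 0, with a median log2 fold change of 0.34 beside -0.005 for all genes. Over all SM rats the sum ran from 4630 through a median of 17007 to 27256 CPM in SM_ExT. In SM_Sed these values were 4437, 12893 and 24740 CPM. The sum's median was 8961 CPM in sedentary and 20016 CPM in trained rats numbered 2 to 16, and 15313 and 14178 CPM in rats numbered 17 to 32. Its part in the training values above was not tested. Reads of Myh7 that were counted for Myh6, or of Acta1 for Actc1, could also enter these trace levels in muscle, and that was not tested either.

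**Figure D4:**
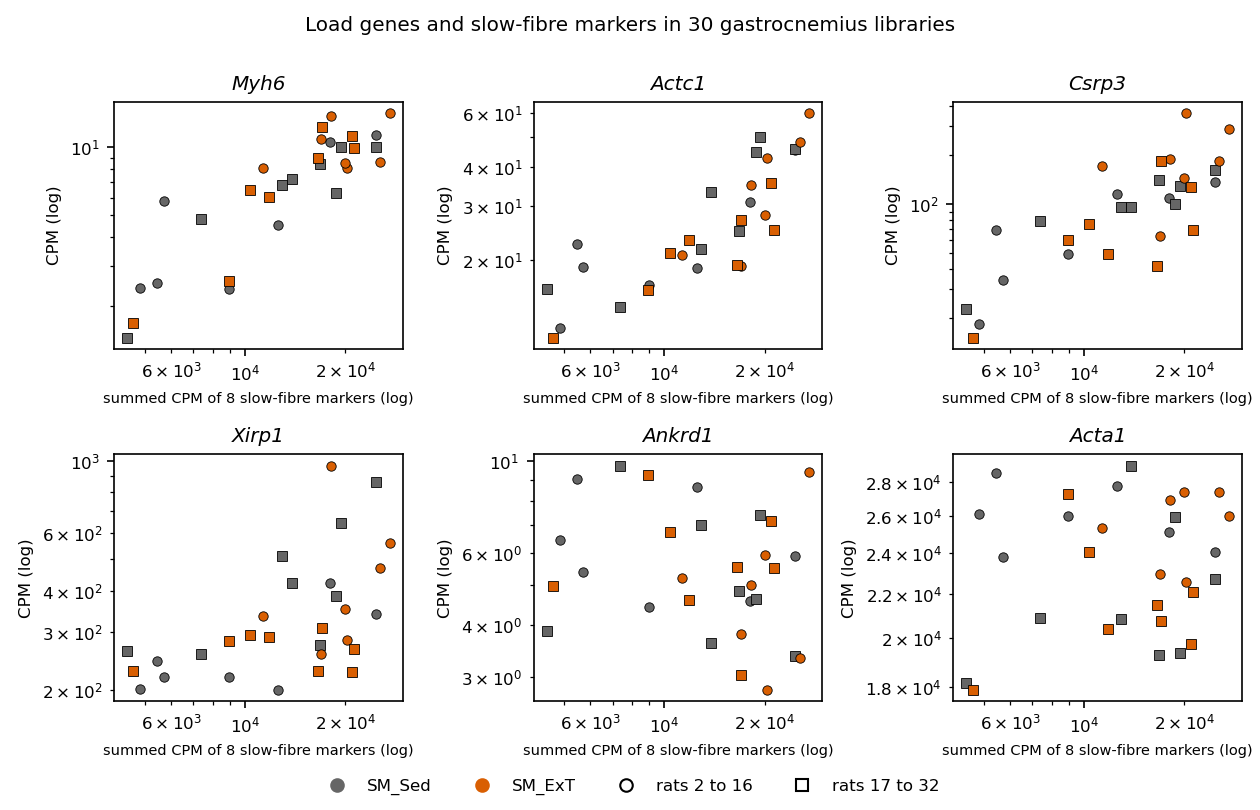
CPM of 6 members (y axes, log scale) is plotted against the summed CPM of 8 slow-fibre markers (x axes, log scale) in 30 SM libraries, coloured by arm, with circles for rats 2 to 16 and squares for rats 17 to 32. Myh6, Actc1 and Csrp3 climb with the marker sum (r = 0.867, 0.850 and 0.793 within arms), while Ankrd1 and Acta1 show no such slope.

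The 2 tissues of the same rats differed far more than the training arms did. In sedentary rats 8 of 9 members were called between LV and SM (5 higher and 3 lower in LV), as were 78.7% of the 14367 genes tested, and the LV and SM libraries did not overlap for 8 of 9, beside 56.1% of all genes. Library kit and RNA input (100 ng for LV, 50 ng for SM) changed with tissue and cannot be told apart from it. On the joint scale Myh6 ran from 13133 to 18222 CPM in LV_Sed and from 5.09 to 11.1 CPM in SM_Sed, a log2 fold change of 10.87 (SE 0.219). Ankrd1 ran from 895 to 1184 CPM in LV and from 3.83 to 10.3 CPM in SM (7.43, SE 0.204). Actc1 ran from 3644 to 4449 CPM in LV and from 14.9 to 53.1 CPM in SM (6.93, SE 0.264). All 3 had adjusted p-values of 1.35e-13 or less with edgeR's quasi-likelihood test.

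The other actin was the mirror image, since Acta1 ran from 368 to 714 CPM in LV and from 20424 to 30595 CPM in SM (-5.43, SE 0.175, adjusted p = 6.35e-16). Xirp2 was also lower in the heart, with 447 to 658 CPM in LV and 1745 to 2649 CPM in SM (-2.08, SE 0.113). Xirp1 was lower with 190 to 248 against 272 to 686 CPM (-1.04, SE 0.168, adjusted p = 2.62e-05). Csrp3 was the member not called by edgeR's quasi-likelihood test in the main fit, which left the rat out (0.18, SE 0.104, adjusted p = 0.117). It ran from 114 to 145 CPM in LV and from 83.3 to 150 CPM in SM. It was called when each rat was kept as a replicate block (0.20, adjusted p = 0.0325), when libraries were scaled by their totals alone (0.42, adjusted p = 0.00118) and without rats 19 and 26 (0.25, adjusted p = 0.0313).

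For the peptides the SM counts were too few for a fitted fold change. Nppa had 53096 counts over the 7 LV_Sed libraries and 2 counts over the same rats' SM libraries. That is a ratio of 8785 between TMM-scaled levels (exact 95% interval 2432 to 72539, counting error only), and 4995 without rats 19 and 26. Nppb had 34545 counts in LV and 0 in SM, at least 3810-fold higher against a floor of 3 counts over the group, and at least 2822-fold without those rats.

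**Figure D5:**
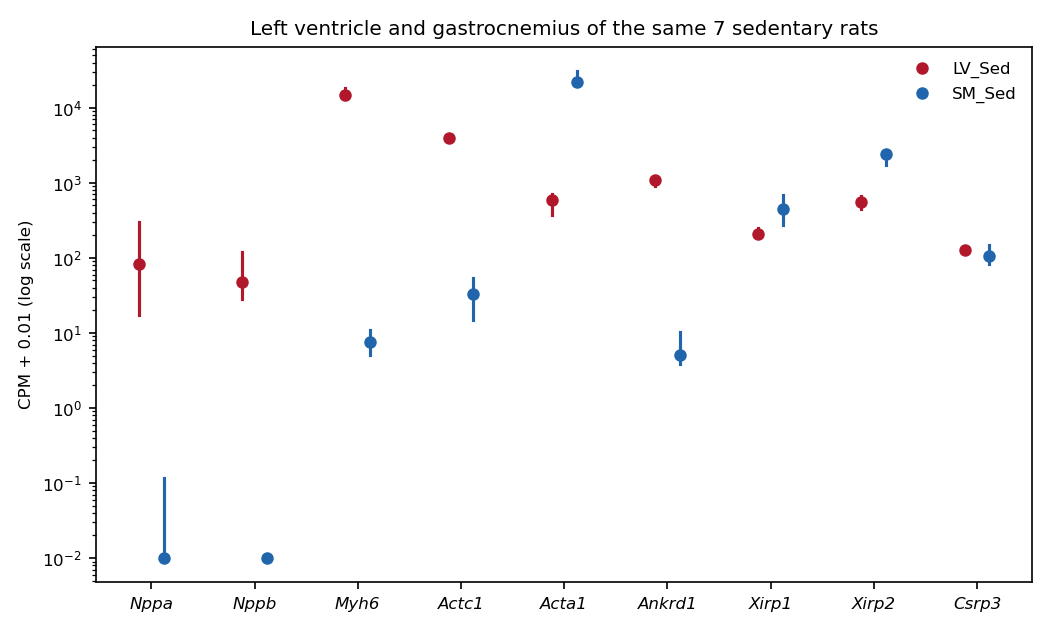
The median (point) and range (line) of CPM + 0.01 (y axis, log scale) are plotted for each gene in LV_Sed and SM_Sed libraries of the same 7 rats. Nppa, Nppb, Myh6, Ankrd1 and Actc1 are higher in LV, Acta1, Xirp2 and Xirp1 are higher in SM, and the Csrp3 ranges overlap (114 to 145 against 83.3 to 150 CPM).

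In trained rats the same 8 members were called, beside 79.3% of 14338 genes, and 7 of 9 did not overlap, beside 57% of all genes. The log2 fold changes of LV against SM were 10.86 for Myh6, 7.42 for Ankrd1, 7.41 for Actc1, -5.16 for Acta1 and -1.88 for Xirp2. The Xirp1 gap was narrower, with 211 to 275 CPM in LV and 246 to 384 CPM in SM (-0.34, SE 0.095, adjusted p = 0.00295), and it was not called when libraries were scaled by their totals alone (-0.14, adjusted p = 0.196). Csrp3 was at 117 to 186 CPM in LV and 45.2 to 199 CPM in SM (0.42, SE 0.29, adjusted p = 0.196), and was called under scaling by totals (0.65, adjusted p = 0.0396). Nppa had 103462 counts in LV and 2 in SM, a ratio of 21498 (exact 95% interval 5951 to 177515) that was 8938 without rats 19 and 26. Nppb was at least 5525-fold higher, with 39887 counts against 0, and at least 4538-fold without them.

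The tissue contrast of the pathway lists is given for sedentary rats. In this contrast 78.7% of the 14367 genes tested were called, and the counts below are to be read beside that share. Of 18 natriuretic system genes 7 were called higher and 6 lower in LV. Corin, the protease that activates atrial natriuretic peptide, was 10.50 higher on the log2 scale (SE 0.31, from 9 SM counts), the cGMP-inhibited phosphodiesterase gene Pde3a was 3.01 higher and the convertase gene Pcsk6 was 2.62 higher. Mme (neprilysin, which degrades the peptides) was at -1.95, Furin at -1.18 and the cGMP-dependent kinase gene Prkg2 at -6.42. Of the 25 load transcription factors 10 were called higher and 12 lower, with the cardiac GATA factors Gata4 at 9.26 and Gata6 at 6.08, and Mef2c at -2.65 and Nfatc1 at -2.90. Tbx5 and Tbx20, also among the 6 with the smallest adjusted p, had too few SM counts for a fold change. Of 23 contractile and calcium genes tested 14 were called higher and 7 lower, and of 29 Z-disc genes 8 higher and 20 lower. Of 24 growth and wall-stress genes tested 11 were called higher and 7 lower. With scaling by library totals alone the median of all genes moved from 0.035 to 0.28, and the split of all calls from 5750 higher and 5551 lower to 7226 and 4296.

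Whether training acted differently in heart and muscle was tested by an interaction over the LV and SM libraries of the 14 rats. edgeR called 0% of 15049 genes (687 at an unadjusted p under 0.05), DESeq2 called 1, and no member was called by either. Xirp1 had the smallest p among the members. Its training difference was larger in LV than in SM by 0.72 on the log2 scale (SE 0.196, raw p = 0.000947, adjusted p = 1), and by 0.85 (SE 0.203) without rats 19 and 26. In the SM libraries of these 14 rats Xirp1 was at -0.57 on the log2 scale, trained against sedentary (raw p = 0.00452, adjusted p = 0.649). Most of these rats belong to the range in which Xirp1 was lower in trained muscle, as given above. The Actc1 interaction was 0.49 (SE 0.258, raw p = 0.0678), and those of Myh6 and Ankrd1 were 0.004 and 0.01.

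The MT libraries held few reads of these genes and showed no training difference. All 9 members passed the filter there, 0 were called and 0 reached an unadjusted p under 0.05, beside 0% of 19281 genes called with edgeR (912 at an unadjusted p under 0.05) and 0 with DESeq2. Estimates ranged from -0.13 for Myh6 to 0.45 for Acta1, whose level spread from 15.4 to 419 CPM between libraries. Nppa had 3 to 26 counts per MT library with a mean of 6.59 CPM, and Nppb had 1 to 17 counts with a mean of 5.42 CPM, although the whole muscle held almost no counts of either. For scale, of 5798 genes that no SM or LV library detected, 5332 had MT counts, and the 5th to 95th percentiles of their mean levels were 0.173 to 8.08 CPM. The peptide levels in MT lie inside that range.

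The genes most alike to each member were taken by Pearson correlation of log2 levels within arms, among 9091 genes in the 14 LV and 8787 genes in the 30 SM libraries, as a description with no test. All the points of one gene pair share libraries and scaling. In LV, Nppa was most like Yipf3 (r = 0.890) and a gene without a symbol, then Pam (0.857), the enzyme that amidates peptide hormones. Nppb was most like Tsc22d1 (0.936), Peds1 and Stradb, and Xirp1 was most like Gata6 (0.891), Efnb3 and Sema4b. Myh6 led with Gtf3c1, Ankrd1 with Ptgr1, Csrp3 with Kcnk3, Actc1 with Sco1 and Acta1 with Surf6. Without rats 19 and 26 the leading genes stayed for Nppa (Yipf3, 0.944) and Acta1 (Surf6, 0.888) and changed for Nppb, Myh6, Ankrd1, Xirp1, Csrp3 and Actc1, with B2m first for Nppb (0.954) and Efnb3 first for Xirp1 (0.944). Pam was then not among the 3 genes most like Nppa, where Phax (0.920) and Cdh13 (0.900) followed Yipf3.

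In SM, Xirp1 was most like Asb5 (r = 0.892), the stress-induced factor Atf3 (0.888) and the calcineurin regulator Rcan1 (0.887). Csrp3 was most like the small heat shock genes Hspb7 (0.929) and Cryab (0.919) and the stretch-responsive Ankrd2 (0.916). Actc1 was most like Gpx1 (0.879), Cryab and Smtnl1, Acta1 like Phospho1 (0.936), Myh6 like Wnt16 (0.879) and Xirp2 like Dnajc21 (0.841). Ankrd1 had the least close neighbour of the 7, Angptl7 at 0.741.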

How the data were processed

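Total RNA was sequenced from 74 libraries of 30 rats. The authors deposited 3 tables of whole-number counts per gene, 1 each for SM, MT and LV, per the file headers. The submitters' processing notes name FastQC 0.74, cutadapt 4.6, STAR 2.7.11a, HTSeq and the build mRatBN7.2, with no parameters, and the strand setting is not given in the sources used here. Per the labels' protocols, ribosomal RNA was depleted, from 100 ng (LV, Illumina kit), 50 ng (SM) and 10 ng (MT, both Zymo kit) of RNA. Libraries were grouped by title. 0 columns belonged to no sample.

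Counts were tested with edgeR 4.0.16 (R 4.3.3): TMM, filterByExpr, robust quasi-likelihood F tests, Benjamini-Hochberg adjustment over all genes of a comparison, called at adjusted p under 0.05. Each fit used only the groups compared. DESeq2 1.42.0, other scalings, filters and sets of rats were alternatives. The members and lists were chosen with earlier results of these data known. Named genes are the members, called list genes (at most 6 per list) and the 3 most correlated genes with a mean of at least 5 CPM. Correlations used log2(CPM + 0.5), centred within arm, and 100000 resamples (scipy 1.17.1). Comparisons of LV with SM use 14 rats that gave both, so the rat pairs the libraries. The main tissue and interaction fits left the rat out, and the rat as a replicate block was an alternative. Over 13011 genes the deviations of same-rat libraries correlated at a median of 0.0283 (-0.148 to 0.205), and those of different rats at -0.0098. The fitting scripts were tested on simulated counts. The floor is 3 counts. It and the exact intervals of the peptide count ratios cover counting error only, while intervals of fold changes come from the spread between rats. Promoters come from RefSeq (GRCr8), while the tables' own build differs. The most correlated genes of Xirp2 in LV are not reported here.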

Additional observations from a re-analysis of the deposited data

Results flagged for a closer look

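Of the 24 gene or ratio groups of 7 LV libraries examined, 3 had 1 library set far from the rest of its group by Dixon's test, which chance gives in about 1 of 20 groups. Nppa in sedentary rat 19 was 322.2 CPM, and that library also held high atrial markers (Myl7 197.7 CPM). Their part in the value was not tested. Ankrd1 in sedentary rat 32 was 974.1 CPM, below the 1160 CPM or more of the other 6 sedentary rats, and the same rat had the lowest Nppa, Nppb, Acta1 and Myh7 of its arm. The log2 ratio of Acta1 to Actc1 in trained rat 27 was -3.59, where the arm's mean was -2.72, with Acta1 at 422 CPM and Actc1 at 5102 CPM.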

How the results depend on the processing

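Over the members' fold changes, 490 alternative values kept their direction and side of the threshold, 4 became called, 1 lost its call and 22 reversed, each of the last uncalled before and after. The cause was not tested. Ankrd1 in LV ran from -0.070 (without trained rat 18) to 0.12 (without trained rat 14). In SM, rats 17 to 32 alone gave 0.074 for Ankrd1, 0.020 for Xirp2, -0.41 for Csrp3 and -0.49 for Actc1, and rats 2 to 16 gave 0.81 for Xirp1. The SM libraries of the 14 LV rats gave 0.044 for Ankrd1, 0.013 for Xirp2, -0.10 for Csrp3, -0.35 for Actc1 and 0.021 for Acta1. In MT, library totals gave 0.028 for Xirp1 and -0.084 for Csrp3, rats 17 to 32 gave 0.023 for Myh6 and -0.018 for Xirp2, and rats 2 to 16 gave -0.14 for Ankrd1 and -0.11 for Acta1. The LV to SM interaction gave -0.042 for Myh6 and -0.066 for Ankrd1 with library totals, -0.0025 for Myh6 with no low-count filter and -0.035 for Myh6 without rats 19 and 26. With the rat as a replicate block it gave -0.042 for Ankrd1, and in the paired fits 11174 (Sed) and 11224 (ExT) genes were called between LV and SM. Beyond Csrp3 in sedentary rats the block changed no member's call.

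Counts of called genes moved with the tool and the rats. DESeq2 called 1 gene in LV, 136 in SM, 1 in the LV to SM interaction and 56 in the SM range interaction. In SM there were 45 with rat-number range as a covariate, 1 in rats 17 to 32, 396 in rats 2 to 16 and 1 in the 14 LV rats, against 28. Leaving out each LV rat in turn left 0 genes called each time (0 to 0), and moved the log2 fold change of Nppa between 0.16 and 1.75 and that of Xirp2 between 0.18 and 0.28. The arms' difference in the log2 ratio of Acta1 to Actc1 in SM, -0.09 over all rats, was 0.40 in rats 17 to 32 and -0.65 in rats 2 to 16 (exact permutation p = 0.0734). Without rats 19 and 26 the arms' differences in LV log2 ratios were 0.0070 (Myh6 to Myh7) and 0.017 (Nppb to Nppa), and correlations were 0.697 (Nppa with Nppb), -0.080 (Nppa with atrial markers), 0.675 (Nppb with Ankrd1) and -0.038 (Xirp1 with Xirp2). In rats 17 to 32 the first 3 were 0.708, 0.691 and 0.526, the second being set by rats 19 and 26, which stand apart in it, and so no measure of a relation. In rats 2 to 16 Acta1 with slow-fibre markers was at r = -0.12. As a mean of log2 levels the marker differences became -0.11 (atrial), 0.018 (conduction tissue) and -0.11 (epicardium), and without rats 19 and 26 the sums differed by -23.3 (atrial), -1.01 (regenerating muscle) and -0.74 (epicardium) CPM. With 7 LV rats per arm, the 95% interval of Nppa spans -0.83 to 3.19, and MT depth (down to 530397 counts) limits every value there.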

Other observations

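Beside the members, 1 gene of the 6 pathway lists was called with training in SM. This was Hcn2, a pacemaker channel gene of the contractile and calcium list, of which 20 genes were tested there. Over all 13570 genes tested in SM 0.206% were called. Trained rats were higher in Hcn2 by 0.49 on the log2 scale (SE 0.103, edgeR's quasi-likelihood test, adjusted p = 0.0333). In LV the Hcn2 estimate was 0.28 (SE 0.0988, adjusted p = 0.804). Of the natriuretic system in SM, the receptor genes Npr1, Npr2 and Npr3 had log2 fold changes of 0.19, 0.20 and 0.37 and the convertase gene Pcsk6 had -0.35, each with an unadjusted p under 0.05 and an adjusted p from 0.125 to 0.313, so none was called, where 13.7% of all genes reached that unadjusted p. Of the 5 endothelial markers 5 had estimates above 0 (median 0.21) and 4 had an unadjusted p under 0.05, with a summed level of 345.9 to 521.3 CPM in SM_ExT and 252.0 to 504.5 CPM in SM_Sed. All 4 smooth muscle markers also had an unadjusted p under 0.05 in SM with estimates above 0, none called, and their summed level was 199.6 to 473.4 CPM in SM_ExT and 104.1 to 302.9 CPM in SM_Sed, and their part in these receptor values was not tested.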
